A study of Mus musculus with 21 samples.

Results

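The genes described here are 35 basic helix-loop-helix (bHLH) factors, taken by gene symbol from a list headed as tissue-specific. Not all of them are tissue-restricted. That list was drawn up with earlier results of these data known. All 35 were present among the 48321 gene symbols of the count tables. They include factors of mesoderm and somites (Mesp1, Mesp2, Msgn1, Tcf15), of skeletal muscle (Myod1, Myf5, Myf6, Myog), of neurons (Neurog1, Neurod1, Neurod4, Atoh1, the Olig and Nhlh genes) and of mesenchyme (Twist2, Scx, Tcf21), and repressors such as Bhlhe40 and Bhlhe41. The study forced expression of TWIST1, a bHLH factor of mesenchyme, in embryoid bodies, which are aggregates of differentiating mouse embryonic stem cells. RNA was sequenced from 21 samples in 7 groups of 3, all collected on day 3 of differentiation, all from A2loxCre embryonic stem cells and all labelled C57BL/6.

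The parental group was the A2loxCre line with no TWIST1 construct, given doxycycline. In the other 6 groups a TWIST1 coding sequence sat in the genome behind a doxycycline-inducible promoter. The monomer line was collected without doxycycline (0 h) and after 16 h of doxycycline. The homodimer line (TWIST1-TWIST1) and 3 heterodimer lines, in which TWIST1 was paired with TCF3, TCF4 or TCF12, which are E proteins, were collected after 16 h of doxycycline, as was the parental line. Uninduced samples of the dimer lines were not analysed here, so the effect of a dimer and a difference between its line and the parental line cannot be told apart. The uninduced monomer group differs from the parental and dimer groups in doxycycline (0 against 16 h) as well as in construct. In comparisons with it these cannot be told apart. The labels do not say whether a line is a single clone, or whether the 3 samples of a group came from separate cultures, so the p-values measure the spread between these samples, which may be technical.

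A bHLH protein binds DNA as a dimer. Its helix-loop-helix region holds the partners together, and the basic region of each partner reads a part of the E-box, a short site of the form CANNTG. Tissue-restricted members such as MESP1, MYOD1 or NEUROD1 pair with broadly expressed E proteins, and the Id proteins, which lack the basic region, hold E proteins in dimers that cannot bind DNA. TWIST1 belongs to the same tissue-restricted branch and draws on the same E proteins, and in the embryo it acts in cranial mesoderm, neural crest and limb mesenchyme.

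Levels are given as CPM, the deposited counts scaled to a common library size with TMM factors. A gene was called expressed when the mean of at least 1 group reached 1 CPM. Tests were quasi-likelihood F-tests (edgeR) in a fit over all 21 samples and the 14311 genes that passed a filter on low counts, and a gene passed a comparison at a Benjamini-Hochberg adjusted p under 0.05. The libraries held 6648842 to 15999693 counts, so 3 counts, taken as the lowest level a library can show, corresponded to 0.188 to 0.451 CPM. The samples expressed the markers of an early embryoid body: all 8 markers of undifferentiated stem cells and all 5 of epiblast were at 1 CPM or more on average in every group. Twist1 was higher in all 5 induced groups than in the parental group, at 613 CPM for the monomer, 182 for the homodimer, and 55.2, 39.4 and 42.3 in the TCF3, TCF4 and TCF12 heterodimer groups, against 8.11 CPM. Tcf4 rose with the TCF4 construct, from 47.5 to 330 CPM. Tcf3 was not higher in the TCF3-labelled libraries (154 against 167 CPM, adjusted p = 0.24), and Tcf12 passed there (104 against 66.1 CPM, adjusted p = 0.012). In the TCF12-labelled libraries Tcf12 was at 53.2, 118 and 108 CPM, the first below and the others above all parental samples (62.9 to 68.9 CPM), and the group missed the threshold (adjusted p = 0.055). Without that first library the log2 difference of Tcf12 from the parental group was 0.77 ± 0.08 (SE, adjusted p = 1.5e-08) there, 0.65 in the TCF3-labelled libraries and 0.45 in the TCF4 dimer (adjusted p = 4.1e-08 and 4.7e-05). The groups are called TCF3-labelled and TCF12-labelled throughout.

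Library 1 of the TCF12-labelled group stood apart from its group. The SD of its log2 deviations from the group mean over genes was 0.48, against 0.127 to 0.303 in the other 20 libraries. The common biological coefficient of variation of the fit was 0.12 with it and 0.0539 without it. For the 12 tested genes, calls of that group against the parental group or the uninduced line are given below with and without this library. The same holds for the heterodimers together against the homodimer. Single-gene tests among the heterodimers, tests with no filter on low counts and tests of bHLH genes outside the 35 are given with it only. Without it 6 of the 12 tested genes passed against the parental group and 6 against the uninduced line, and 7 differed between the heterodimers and the homodimer and 7 among the heterodimers, in each case the same genes as with it. With it 27.0%, 37.0%, 14.0% and 26.0% of all tested genes passed, in the same order. The shares without it are not given here, so these counts describe the 12 genes only. The count tables of that group also differ from the other 18, in which 25 gene symbols, none of them among the 35, had been turned into calendar dates, and this difference in handling and the group cannot be told apart.

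Promoter sequences are shown for 4 of the genes whose levels the results below turn on, taken from RefSeq on the GRCm38.p6 build as the 250 bases before the start annotated by RefSeq. The windows of Neurod1, Neurod4 and Tcf23 partly overlap the GENCODE gene positions given below, so part of each lies inside the gene by that annotation. For Neurod4 the window of 1 of its 2 RefSeq starts is shown. Against the parental group, Neurod4 was higher in every heterodimer group, and Neurod1 in these and in the induced monomer. Atoh8 was higher in the TCF3-labelled and TCF12-labelled libraries and missed the threshold in the TCF4 dimer. Tcf23 was lower in the TCF4 dimer and the TCF12-labelled libraries, and higher in the uninduced and induced monomer and the TCF3-labelled libraries. Capitals mark each E-box (CANNTG), and each sequence reads 5′ to 3′ on the strand of the gene.
Neurod1, chr2:79456637-79456886, minus strand: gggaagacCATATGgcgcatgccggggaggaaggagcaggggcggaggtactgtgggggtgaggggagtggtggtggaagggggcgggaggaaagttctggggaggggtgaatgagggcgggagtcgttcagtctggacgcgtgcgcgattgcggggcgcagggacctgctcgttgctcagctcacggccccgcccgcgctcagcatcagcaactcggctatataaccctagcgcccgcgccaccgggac
Atoh8, chr6:72235578-72235827, minus strand: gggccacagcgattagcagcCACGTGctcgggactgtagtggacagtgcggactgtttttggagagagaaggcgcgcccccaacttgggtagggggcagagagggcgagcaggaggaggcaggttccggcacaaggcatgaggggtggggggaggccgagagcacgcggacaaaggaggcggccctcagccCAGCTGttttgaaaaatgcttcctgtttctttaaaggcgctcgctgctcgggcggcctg
Neurod4, chr10:130280139-130280388, minus strand: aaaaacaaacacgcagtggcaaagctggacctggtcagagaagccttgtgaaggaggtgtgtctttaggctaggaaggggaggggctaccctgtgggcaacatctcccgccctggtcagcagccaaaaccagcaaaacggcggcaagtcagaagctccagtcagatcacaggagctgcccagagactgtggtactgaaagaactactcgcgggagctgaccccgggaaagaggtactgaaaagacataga
Tcf23, chr5:30968427-30968676, plus strand: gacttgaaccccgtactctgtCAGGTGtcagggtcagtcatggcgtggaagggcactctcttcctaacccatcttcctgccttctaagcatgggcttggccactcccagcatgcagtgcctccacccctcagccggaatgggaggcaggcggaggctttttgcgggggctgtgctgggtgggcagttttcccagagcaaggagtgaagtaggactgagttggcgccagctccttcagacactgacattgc

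The Neurod1 promoter held 1 E-box, CATATG, 242 bases before the start. The Atoh8 promoter held CACGTG 230 bases and CAGCTG 59 bases before the start, and the Tcf23 promoter held CAGGTG 229 bases before it. Neither of the 2 annotated Neurod4 starts had a CANNTG in its window. Motifs were searched on both strands, and CATATG and CAGCTG are themselves forms of CANNTG. Of 32817 mouse promoter windows of the same length, 66.2% held CANNTG, 3.47% held CATATG, 13% held CAGCTG and 14.5% held CAGATG. RefSeq windows were found for 27 of the 35 genes, and 17 of those 27 held CANNTG. A match describes the letters only and does not show that a factor was bound.

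Of the 35 genes, 12 were expressed in at least 1 group, and the same 12 passed the filter and were tested. They were Tcf15, Tcf23, Tcf24, Msc, Mesp2, Neurod1, Neurod4, Atoh8, Bhlhe40, Bhlhe41, Tcfl5 and Bhlha15. By the same criterion, 29.3% of all genes in the tables were expressed. In the parental embryoid bodies 9 were expressed, and 8 were expressed in every group. Msc, Neurod4 and Atoh8 were below 1 CPM in the parental group and were tested because other groups had enough counts, so that a difference between groups was built into their selection. The other 23 genes stayed below 1 CPM in every group, the highest group mean being 0.965 CPM, for Bhlhe23 in the uninduced monomer line.

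**Figure D1:**
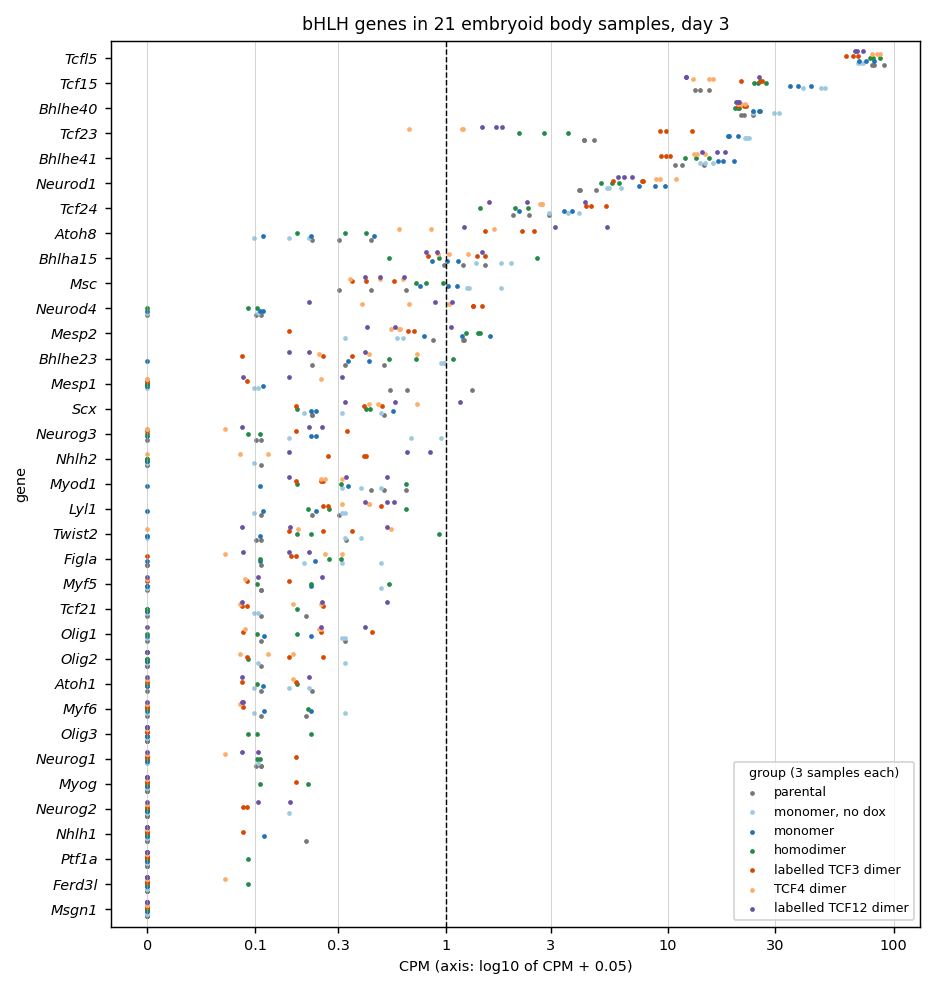
Level of each of the 35 bHLH genes in CPM (logarithmic axis with 0.05 added) in the 21 samples, 1 point per sample, coloured by group and ordered by the highest group mean. The dashed line marks 1 CPM, which 12 genes reached in at least 1 group mean, and Msgn1 lies at 0 in every sample.

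Among the 12, per kilobase of exon, Tcfl5 had the highest level in the parental group (26.6 CPM per kilobase), followed by Tcf15 (14.4) and Bhlhe40 (4.72). Neurod4 had the lowest, at 0.0209 CPM per kilobase. In the uninduced monomer line Tcf15 stood above Tcfl5 on this scale, at 46.7 against 22.5 CPM per kilobase, and it also ranked first in the induced monomer (39.4) and the TCF3-labelled libraries (24.7). Exon lengths come from GENCODE mouse release M21 on GRCm38.

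With the parental group as reference, 4 of the 12 genes passed for the monomer, 1 for the homodimer, 8 in the TCF3-labelled libraries, 3 in the TCF4 dimer and 6 in the TCF12-labelled libraries. Over all 14311 genes tested the shares that passed were 20.0%, 8.84%, 28.3%, 12.9% and 27.0%, in the same order. With so few genes, 3 of them below 1 CPM in the parental group and tested because other groups were high, these counts describe the 12 and say nothing of bHLH factors as a class. The uninduced monomer line, which was also without doxycycline, differed from the parental line in 5 of the 12, where 19.9% of all genes passed. All 6 comparisons share the 3 parental samples.

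Most of the genes that passed against the parental group were higher, a count that includes Msc, Neurod4 and Atoh8. Higher than in the parental group were 4 of the 4 that passed in the monomer (10.8% of all tested genes were higher there), 1 of 1 in the homodimer (4.81%) and 6 of 8 in the TCF3-labelled libraries (16.3%). They were 2 of 3 in the TCF4 dimer (7.18%), 4 of 6 in the TCF12-labelled libraries (15.5%) and 4 of 5 in the uninduced monomer line (10.5%). Counted as higher were Neurod4 in every heterodimer group, Atoh8 in the TCF3-labelled and TCF12-labelled libraries and Msc in the uninduced line. Their direction against the parental group was built into their selection. These counts and the medians below therefore do not show a direction for the 12 as a set. The median log2 difference of the 12 from the parental group was 0.26, 0.03, 0.36, 0.07 and 0.15 in the 5 induced groups, where that of all tested genes lay between 0.00 and 0.02. Against the uninduced monomer line, 1 of the 12 passed in the induced monomer (2.00% of all genes), 6 in the homodimer (22.8%), 7 in the TCF3-labelled libraries (28.9%), 8 in the TCF4 dimer (32.3%) and 6 in the TCF12-labelled libraries (37.0%). Of these, 2 were higher and 4 lower in the homodimer, 2 and 5 in the TCF3-labelled libraries, 4 and 4 in the TCF4 dimer and 2 and 4 in the TCF12-labelled libraries, while the 1 of the monomer was higher. Of the 12, 7 differed between the heterodimers together and the homodimer (14.0% of all genes), and 7 differed among the 3 heterodimers (26.0%). With only the 3 heterodimer groups in the fit, Tcf15, Tcf24, Neurod1, Atoh8 and Tcfl5 no longer passed as different among them (adjusted p = 0.24, 0.18, 0.1, 0.21 and 0.087). Bhlha15 was the only 1 of the 12 that passed in none of the 13 comparisons.

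**Figure D2:**
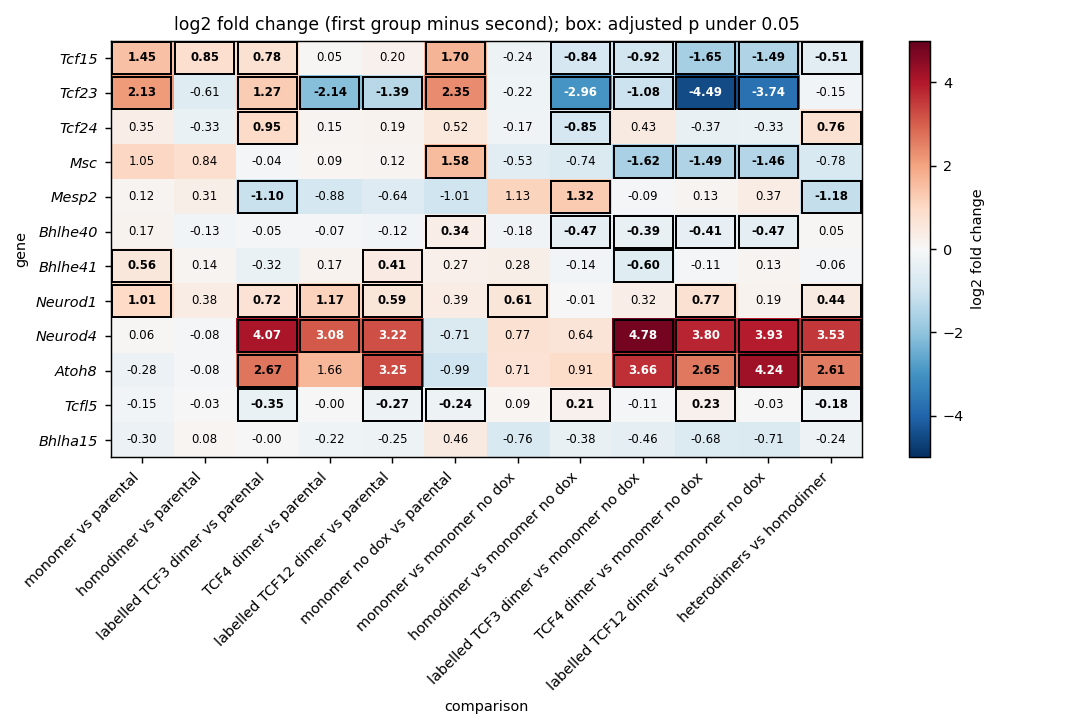
Log2 fold change of the 12 tested genes (rows) in 12 comparisons (columns), first group minus second, by the colour scale. Boxes mark an adjusted p under 0.05, and the boxed values of Neurod1, Neurod4 and Atoh8 are all above 0.

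The first role to consider is that of mesoderm and somites. Tcf15 (also called paraxis, needed for somites to become epithelial; GRCm38 chr2:152143561-152149097, plus strand) was present in every sample and highest in the monomer line. Its level was 15.3, 13.2 and 13.8 CPM in the parental samples, 47.8, 50.0 and 39.6 in the monomer line without doxycycline and 37.9, 43.1 and 34.8 with it, and 24.2, 27.1 and 25.1 in the homodimer samples. It was 21, 26.0 and 25.6 CPM in the TCF3-labelled libraries, 15.3, 15.8 and 12.9 in the TCF4 dimer and 25.4, 12 and 12 in the TCF12-labelled libraries. The uninduced and induced monomer samples lay above every other sample, the homodimer and TCF3-labelled dimer samples lay above all parental samples, and the TCF4 dimer samples overlapped the parental ones.

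Against the parental group the log2 difference of Tcf15 was 1.70 ± 0.21 (SE, adjusted p = 7.7e-06) in the uninduced line, 1.45 ± 0.21 (SE, adjusted p = 4e-05) for the monomer, 0.85 ± 0.21 (SE, adjusted p = 0.012) for the homodimer and 0.78 ± 0.21 (SE, adjusted p = 0.0082) in the TCF3-labelled libraries. Induction itself did not move it detectably: induced and uninduced monomer samples differed by -0.24 ± 0.19 (SE, adjusted p = 0.88). It was lower than in the uninduced line in the homodimer and in all 3 heterodimer groups, by -0.84 to -1.65. In the TCF12-labelled libraries the first library, which stood apart, was at 25.4 CPM and the others at 12. The difference of the group from the uninduced line was -1.49 ± 0.20 (SE, adjusted p = 9.8e-06) with that library and -1.92 ± 0.12 (SE, adjusted p = 1.8e-14) without it. The homodimer call against the parental group was lost without parental library 2 or 3 (adjusted p = 0.06 and 0.051). Tcf15 was also lower in the heterodimers than in the homodimer (-0.51 ± 0.16 (SE, adjusted p = 0.042)), a call lost in 13 of the 21 fits that left out 1 library, with an adjusted p of up to 0.17, and with only the groups compared in the fit (adjusted p = 0.15), while without the first TCF12-labelled library it was -0.67 ± 0.09 (SE, adjusted p = 6.3e-07). It differed among the heterodimers (adjusted p = 0.024), and no longer passed without TCF3-labelled library 2 or 3 or TCF4 library 3 (adjusted p = 0.096, 0.075 and 0.066).

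Mesp1 and Mesp2 are neighbours on mouse chromosome 7 (Mesp1 at chr7:79792241-79793788, minus strand; Mesp2 at chr7:79810727-79813439, plus strand). Mesp1 marks the earliest mesoderm, including the precursors of the heart, and Mesp2 sets the boundaries of somites. Mesp1 counts were 6, 5 and 13 in the parental libraries, 0, 1 and 1 in the monomer line without and 0, 1 and 0 with induction, and 0 in all homodimer libraries. They were 0, 1 and 0 in the TCF3-labelled libraries, 0, 0 and 4 in the TCF4 dimer and 3, 1 and 2 in the TCF12-labelled libraries. All 3 parental libraries lay above the other 18, although the parental mean of 0.836 CPM is itself below the 1 CPM threshold. Mesp1 failed the filter and was described after its values were seen. With no filter on low counts it passed as lower than the parental group in all 6 other groups, with adjusted p between 0.00035 (TCF3-labelled dimer) and 0.025 (TCF12-labelled dimer), the uninduced line included (adjusted p = 0.0079). In that setting 28086 genes were tested and 1144 (homodimer) to 3881 (TCF12-labelled) of them passed against the parental group.

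Of 8 primitive streak and mesoderm markers, none at 0 in any group, 7 were tested (Eomes, Evx1, Fgf8, Gsc, Mixl1, T and Wnt3), and all 7 were lower than in the parental group in each of the other 6 groups. The eighth, Tbx6, had group means of 0.479 to 0.655 CPM, with 0.626 in the parental group. The summed level of the 8, of which Eomes made up 133 CPM in the parental group, was 213 to 252 CPM in the parental samples and 16.7 to 42.4 CPM in the other 18. In bulk RNA, fewer cells of a type and less RNA per cell cannot be told apart, and the part of streak-like cells in the Mesp1 level was not tested. Msgn1, a factor of presomitic mesoderm, had 0 counts in all 21 libraries.

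Mesp2 reached 1 CPM in the parental, induced monomer and homodimer groups. Its level was 0.872, 1.19 and 1.21 CPM in the parental samples, 0.325, 0.627 and 0.586 in the monomer line without doxycycline and 1.59, 0.788 and 1.18 with it, and 1.40, 1.44 and 1.24 in the homodimer samples. It was 0.661, 0.706 and 0.163 CPM in the TCF3-labelled libraries, 0.550, 0.599 and 0.608 in the TCF4 dimer and 0.420, 0.574 and 1.05 in the TCF12-labelled libraries. The homodimer samples lay above all heterodimer and all uninduced samples. No uninduced, TCF3-labelled or TCF4 sample reached 1 CPM. Mesp2 was thus tested because other groups had enough counts, and a difference from these groups was partly built into its selection. Mesp2 was higher in the homodimer than in the uninduced line (1.32 ± 0.40 (SE, adjusted p = 0.023)) and lower in the heterodimers together than in the homodimer (-1.18 ± 0.29 (SE, adjusted p = 0.0085); -1.12 ± 0.30 (SE, adjusted p = 0.0046) without the first TCF12-labelled library). It was lower in the TCF3-labelled libraries than in the parental group (-1.10 ± 0.40 (SE, adjusted p = 0.047)). That last call rests on 18 against 31 counts: it was lost in 16 of the 21 fits that left out 1 library, with the highest adjusted p, 0.29, without TCF3-labelled library 3, and in 4 of 6 other alternatives. The homodimer call against the uninduced line was lost without uninduced library 1 or 3 or homodimer library 1 or 2 (adjusted p = 0.079, 0.055, 0.056 and 0.063), and the heterodimer call without homodimer library 2 (adjusted p = 0.056).

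Other genes of these programmes moved in both directions. Of 20 presomitic and paraxial mesoderm genes, 13 were tested, and against the parental group 3 were higher and 5 lower for the monomer, 4 and 4 for the homodimer, 7 and 5 in the TCF3-labelled libraries, 6 and 4 in the TCF4 dimer, 5 and 5 in the TCF12-labelled libraries and 2 and 5 in the uninduced line. T (brachyury, a factor of the primitive streak) was at 1.19 against 26.1 CPM in the monomer and 1.60 against 26.1 CPM in the uninduced line, and Fgf8, a growth factor of the streak, at 1.79 against 25.4 CPM in the homodimer. Pax3, a factor of dorsal somites and neural tube, was higher in the TCF3-labelled libraries (5.21 against 0.311 CPM) and the TCF12-labelled libraries (7.38 against 0.311 CPM). Of 18 early and cardiac mesoderm genes, 15 were tested: 3 were higher and 4 lower for the monomer, 0 and 8 for the homodimer, 9 and 5 in the TCF3-labelled libraries, 5 and 8 in the TCF4 dimer, 7 and 8 in the TCF12-labelled libraries and 4 and 5 in the uninduced line. Eomes, a T-box factor of the streak, was at 12.3 against 133 CPM in the TCF3-labelled libraries, while Hand1, a bHLH factor of heart and extraembryonic mesoderm, was at 10.6 against 0.357 CPM in the TCF12-labelled libraries. The median log2 difference of the tested cardiac list was 1.17 in the TCF3-labelled libraries and -0.75 in the homodimer, where all tested genes were at 0.01 and 0.00.

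Tcf23, a bHLH protein described as an inhibitor of DNA binding by other bHLH dimers (GRCm38 chr5:30968662-30977018, plus strand), had the widest range as a fold between group means of the 8 genes expressed in every group. Its level was 4.69, 4.23 and 4.24 CPM in the parental samples, 22.9, 21.9 and 22.4 in the monomer line without doxycycline and 18.4, 18.7 and 20.4 with it, and 2.81, 3.59 and 2.16 in the homodimer samples. It was 9.26, 12.8 and 9.76 CPM in the TCF3-labelled libraries, 1.18, 1.20 and 0.669 in the TCF4 dimer and 1.47, 1.80 and 1.70 in the TCF12-labelled libraries. The order of the groups was uninduced, induced monomer, TCF3-labelled dimer, parental, homodimer, TCF12-labelled dimer and TCF4 dimer, and no 2 of these 7 groups overlapped.

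Relative to the parental group Tcf23 was higher in the uninduced line (2.35 ± 0.16 (SE, adjusted p = 4.5e-09)), the monomer (2.13 ± 0.16 (SE, adjusted p = 1.2e-08)) and the TCF3-labelled libraries (1.27 ± 0.16 (SE, adjusted p = 7.4e-06)). It was lower in the TCF4 dimer (-2.14 ± 0.22 (SE, adjusted p = 1.4e-06)) and in the TCF12-labelled libraries (-1.39 ± 0.21 (SE, adjusted p = 7e-05); -1.32 ± 0.24 (SE, adjusted p = 7.9e-05) without the first library). The homodimer missed the threshold (-0.61 ± 0.19 (SE, adjusted p = 0.061)) and passed it in the fit without the first TCF12-labelled library (adjusted p = 0.033). Induced and uninduced monomer samples did not differ by the test (-0.22 ± 0.14 (SE, adjusted p = 0.73)). Among the 3 heterodimers it differed with an adjusted p of 2.9e-10, so the mean over the heterodimers, close to the homodimer (-0.15 ± 0.17 (SE, adjusted p = 0.68); -0.14 ± 0.19 (SE, adjusted p = 0.63) without the first TCF12-labelled library), describes none of them.

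The primitive endoderm markers changed across the same groups. The summed level of 8 such markers (Sox17, Gata4, Gata6, Sox7, Foxa2, Pdgfra, Dab2 and Lama1), none at 0 in any group, was 1126 to 1306 CPM in the uninduced line, 1118 to 1231 in the monomer and 713 to 891 in the TCF3-labelled libraries. It was 311 to 318 CPM in the parental samples, 204 to 225 in the homodimer, 218 to 240 in the TCF4 dimer and 187 to 271 in the TCF12-labelled libraries. Against the parental group 7 markers were higher and 0 lower in the uninduced line and in the monomer. In the TCF3-labelled libraries 7 were higher and 1, Foxa2, lower. The numbers were 0 and 7 in the homodimer, 0 and 6 in the TCF4 dimer and 1, Pdgfra, and 6 in the TCF12-labelled libraries. The 3 groups with Tcf23 above the parental level are the 3 with marker sums above it. In the groups below the parental level, Tcf23 means were 2.85 (homodimer), 1.66 (TCF12-labelled) and 1.01 CPM (TCF4 dimer), with mean sums of 211, 241 and 229 CPM. Tcf15 was also highest in the uninduced and induced monomer groups. Its mean was 25.5 CPM in the homodimer and 24.2 CPM in the TCF3-labelled libraries, where the mean sums were 211 and 818 CPM. The part of primitive endoderm in the level of either gene was not tested.

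**Figure D3:**
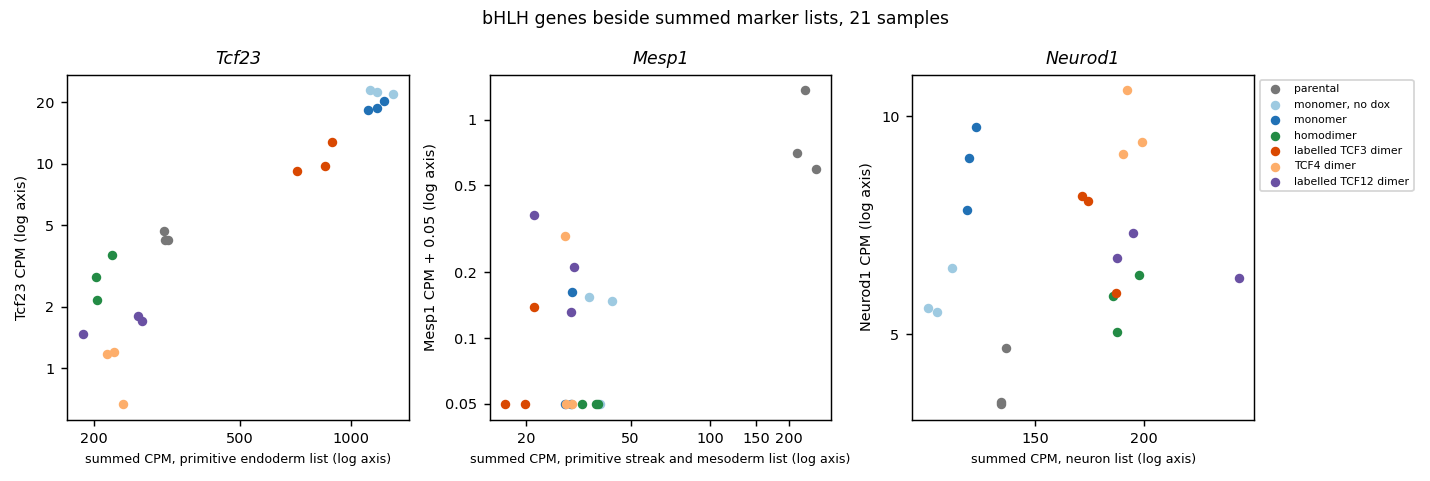
Level of Tcf23, Mesp1 and Neurod1 (CPM, logarithmic axes, 0.05 added for Mesp1) against the summed CPM of the primitive endoderm, primitive streak and mesoderm, and neuron marker lists in the 21 samples, 1 point per sample. The 9 samples with primitive endoderm sums of 713 CPM or more have Tcf23 at 9.26 CPM or more, and the 3 parental samples stand alone at the right for Mesp1.

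Tcf24 and Msc, low in these cells, moved in different groups. Tcf24 was at 2.40, 2.93 and 2.02 CPM in the parental samples, 3.58, 2.93 and 4.0 in the monomer line without doxycycline and 2.16, 3.71 and 3.44 with it, and 2.37, 1.44 and 2.06 in the homodimer samples. It was 4.55, 5.30 and 4.31 CPM in the TCF3-labelled libraries, 2.67, 2.74 and 2.74 in the TCF4 dimer and 1.57, 4.27 and 2.34 in the TCF12-labelled libraries. The TCF3-labelled dimer samples lay above all samples of the other groups, the nearest being the second TCF12-labelled library, and the TCF12-labelled libraries were the most widely spread. Against the parental group Tcf24 passed in the TCF3-labelled libraries alone (0.95 ± 0.27 (SE, adjusted p = 0.013)), and not without parental library 3 or TCF3-labelled library 2 (adjusted p = 0.07 and 0.051). It differed among the heterodimers (adjusted p = 0.036), a call lost in 6 of 21 fits that left out 1 library, each a TCF3-labelled or a TCF4 library, with an adjusted p of up to 0.13. Its lower level in the homodimer, both than in the uninduced line (-0.85 ± 0.30 (SE, adjusted p = 0.049)) and than in the heterodimers (log2 difference of heterodimers minus homodimer 0.76 ± 0.25 (SE, adjusted p = 0.047)) lay at the threshold, and was lost in 17 and 18 of those 21 fits. Without the first TCF12-labelled library the values were -0.85 ± 0.26 (SE, adjusted p = 0.01) and 0.84 ± 0.21 (SE, adjusted p = 0.0032). Library size alone as scaling ended both calls (adjusted p = 0.092 and 0.072), as did a replicate block (0.054 and 0.051), and the second was also lost with only the groups compared (0.11). In the annotation, 14.8% of the exon length of Tcf24 overlaps E330040D14Rik on the opposite strand, and the strand setting of the counting is not given in the sources used here.

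Msc encodes musculin, a repressor that is known for antagonising muscle bHLH factors. Its level was 0.436, 0.650 and 0.303 CPM in the parental samples, 1.79, 1.25 and 1.27 in the monomer line without doxycycline and 1.02, 1.12 and 0.752 with it, and 0.971, 0.808 and 0.720 in the homodimer samples. It was 0.413, 0.353 and 0.569 CPM in the TCF3-labelled libraries, 0.629, 0.342 and 0.487 in the TCF4 dimer and 0.630, 0.410 and 0.484 in the TCF12-labelled libraries. The uninduced samples lay above all other samples. Msc was higher there than in the parental group (1.58 ± 0.32 (SE, adjusted p = 0.003)) and lower than there in the 3 heterodimer groups (TCF3-labelled -1.62 ± 0.30 (SE, adjusted p = 0.00075), TCF4 -1.49 ± 0.29 (SE, adjusted p = 0.00092), TCF12-labelled -1.46 ± 0.30 (SE, adjusted p = 0.0017)). The latter value was -1.61 ± 0.40 (SE, adjusted p = 0.0014) without the first TCF12-labelled library. Counts were 13 in the parental and 36 in the uninduced group, and 21.2% of the exon length overlaps Gm9947 on the opposite strand, so reads of the 2 genes may not be separated. Msc was tested because groups other than the parental one had enough counts, so a difference was built into its selection.

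The muscle determination genes were silent or nearly so. The highest group mean of Myod1 was 0.53 CPM, in the parental group, and those of Myf5, Myf6 and Myog were 0.286 in the homodimer, 0.141 in the uninduced line and 0.105 in the homodimer. Over all 21 libraries they had 70, 24, 15 and 5 counts. The 5 skeletal muscle markers, among which 1 was at 0 in each of 3 groups (Ckm in the homodimer and the TCF3-labelled libraries, Tnnt3 in the TCF4 dimer), summed to 2.58 to 6.30 CPM over all samples. Of 17 genes of the skeletal muscle list, 15 were found in the tables and 8 were tested, and against the parental group 1 was higher and 2 lower for the monomer, 2 and 1 for the homodimer, 3 and 1 in the TCF3-labelled libraries, 4 and 0 in the TCF4 dimer, 5 and 1 in the TCF12-labelled libraries and 0 and 2 in the uninduced line. Tnnt1 (slow troponin T) was at 44.3 against 2.35 CPM in the homodimer, while the tyrosine kinase receptor Met was lower in the homodimer (14.8 against 27.0 CPM).

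The mesenchymal bHLH genes Twist2, Scx (a tendon factor) and Tcf21 (a factor of visceral mesenchyme) had highest group means of 0.441, 0.684 and 0.284 CPM, with 52, 94 and 28 counts in all, and none was tested. Of 15 genes of tendon, sclerotome and mesenchyme, 11 were tested, and 3 were higher for the monomer, 2 for the homodimer, 9 in the TCF3-labelled libraries, 7 in the TCF4 dimer, 7 in the TCF12-labelled libraries and 1 in the uninduced line than in the parental group. The single gene that was lower was Mkx, a homeobox factor of tendon, in the uninduced line (8.34 against 13 CPM). Snai2, a repressor of epithelial genes, was at 7.65 against 0.176 CPM in the TCF3-labelled libraries, and Sox9, a factor of cartilage and neural crest, at 9.33 against 1.38 CPM in the homodimer. The 8 fibroblast or feeder markers, none at 0 in any group, summed to 43.3 to 52.3 CPM in the parental samples, 45.2 to 53.2 in the monomer line and homodimer, 93.2 to 114 in the TCF3-labelled libraries, 58.8 to 65.0 in the TCF4 dimer and 78.3 to 84.4 in the TCF12-labelled libraries. Against the parental group 5 were higher and 1 lower in the TCF3-labelled libraries, 3 and 1 in the TCF4 dimer and 4 and 2 in the TCF12-labelled libraries. For the monomer 3 were higher and 1 lower, in the uninduced line 1 and 1, and in the homodimer 0 and 0. Thy1 was the lower marker in each case, with Postn also lower in the TCF12-labelled libraries.

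The neurogenic members fell into 1 gene present everywhere, Neurod1, and 2 that stayed under 0.5 CPM in every sample of the other 4 groups, Neurod4 and Atoh8. Neurod1, a factor of differentiating neurons and pancreatic islets (GRCm38 chr2:79452521-79456751, minus strand), was at 4.80, 4.01 and 4.04 CPM in the parental samples, 6.18, 5.44 and 5.37 in the monomer line without doxycycline and 8.76, 9.68 and 7.42 with it, and 6.04, 5.66 and 5.04 in the homodimer samples. It was 5.70, 7.77 and 7.64 CPM in the TCF3-labelled libraries, 9.20, 10.9 and 8.88 in the TCF4 dimer and 5.98, 6.89 and 6.38 in the TCF12-labelled libraries. All 18 samples of the construct lines lay above the 3 parental samples, the TCF4 dimer had the highest mean and the induced monomer the next, and these groups overlapped.

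Neurod1 was higher than in the parental group in the monomer (1.01 ± 0.15 (SE, adjusted p = 7.7e-05)), the TCF3-labelled libraries (0.72 ± 0.15 (SE, adjusted p = 0.0014)), the TCF4 dimer (1.17 ± 0.15 (SE, adjusted p = 1.4e-05)) and the TCF12-labelled libraries (0.59 ± 0.15 (SE, adjusted p = 0.0089); 0.63 ± 0.18 (SE, adjusted p = 0.0065) without the first library). That last call was lost with only the groups compared in the fit (adjusted p = 0.1). The homodimer (0.38 ± 0.16 (SE, adjusted p = 0.17)) and the uninduced line (0.39 ± 0.16 (SE, adjusted p = 0.11)) did not pass. It was the only 1 of the 12 that passed between induced and uninduced monomer (0.61 ± 0.15 (SE, adjusted p = 0.037)), a comparison in 1 line. That call was lost in 7 of the 21 fits that left out 1 library, those without monomer library 1 or 2, any 1 of the uninduced libraries, parental library 3 or homodimer library 2, with adjusted p from 0.051 to 0.2, and with no filter on low counts (adjusted p = 0.11). Against the uninduced line it passed in the TCF4 dimer (0.77 ± 0.14 (SE, adjusted p = 0.00033)) but not in the TCF3-labelled libraries (0.32 ± 0.15 (SE, adjusted p = 0.12)) or the TCF12-labelled libraries (0.19 ± 0.15 (SE, adjusted p = 0.33); 0.25 ± 0.17 (SE, adjusted p = 0.24) without the first library). The heterodimers together were higher than the homodimer (0.44 ± 0.12 (SE, adjusted p = 0.018); 0.45 ± 0.13 (SE, adjusted p = 0.0073) without the first TCF12-labelled library), a call lost without homodimer library 2 or 3 (adjusted p = 0.079 and 0.13), with no filter on low counts (0.062) and with only the groups compared (0.059), and the 3 heterodimers differed (adjusted p = 0.008; 0.057 without TCF4 library 2). Of its exon length, 13% overlaps Cerkl on the same strand or Gm26755 on the opposite strand.

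Neurod4, a factor of differentiating neurons (GRCm38 chr10:130268152-130280240, minus strand), was close to absent outside the heterodimer groups. Its counts were 1, 0 and 1 in the parental libraries, 0, 1 and 0 without and 0, 1 and 1 with induction of the monomer, and 0, 1 and 1 in the homodimer libraries. They were 16, 15 and 18 in the TCF3-labelled libraries (1.32, 1.32 and 1.46 CPM), 5, 12 and 11 in the TCF4 dimer (0.393, 1.03 and 0.669 CPM) and 2, 13 and 11 in the TCF12-labelled libraries (0.210, 1.07 and 0.888 CPM). No heterodimer library had fewer than 2 counts and no other library had more than 1. The ratio to the parental group was 19.4 in the TCF3-labelled libraries (95% interval 5.1 to 165), 9.7 in the TCF4 dimer (2.45 to 84) and 10.8 in the TCF12-labelled libraries (2.7 to 93.8), with exact intervals that cover counting error only. In the edgeR fit the adjusted p was 0.00014, 0.01 and 0.0047 in that order, 0.00018 for the last without the first TCF12-labelled library, and 0.00089 for the heterodimers against the homodimer (ratio 14, interval 3.78 to 117; adjusted p = 1.5e-05 without that library). The TCF4 dimer call was lost without parental library 2 (adjusted p = 0.059). The 3 heterodimers did not pass as different from each other (adjusted p = 0.099). Neurod4 was tested only because heterodimer libraries had enough counts, so a difference from the other groups was built into its selection.

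Atoh8, a relative of the atonal factors (GRCm38 chr6:72206177-72235577, minus strand), was at 0.436, 0.217 and 0.303 CPM in the parental samples, 0.163, 0.209 and 0.0977 in the monomer line without doxycycline and 0.455, 0.113 and 0.215 with it, and 0.324, 0.179 and 0.411 in the homodimer samples. It was 2.23, 1.50 and 2.52 CPM in the TCF3-labelled libraries, 1.65, 0.599 and 0.852 in the TCF4 dimer and 5.35, 3.12 and 1.21 in the TCF12-labelled libraries. Every heterodimer library lay above every other library, and the 3 TCF12-labelled libraries were widely spread, with the one that stood apart the highest. Atoh8 was higher than in the parental group in the TCF3-labelled libraries (2.67 ± 0.60 (SE, adjusted p = 0.0022)) and the TCF12-labelled libraries (3.25 ± 0.57 (SE, adjusted p = 0.00032); 2.72 ± 0.50 (SE, adjusted p = 9.4e-05) without the first library). The TCF4 dimer missed the threshold against the parental group (1.66 ± 0.67 (SE, adjusted p = 0.12)) and passed it in the fit without the first TCF12-labelled library (1.66 ± 0.54 (SE, adjusted p = 0.02)). Against the uninduced line all 3 heterodimers passed (3.66 ± 0.72 (SE, adjusted p = 0.00067) TCF3-labelled, 2.65 ± 0.81 (SE, adjusted p = 0.017) TCF4, 4.24 ± 0.67 (SE, adjusted p = 5.8e-05) TCF12-labelled, the last 3.71 ± 0.60 (SE, adjusted p = 6e-06) without the first library). The TCF4 call was lost without uninduced library 3 or TCF4 library 1 (adjusted p = 0.075 and 0.07). Atoh8 was tested only because heterodimer libraries had enough counts, so a difference from the other groups was built into its selection. The heterodimers were higher than the homodimer (2.61 ± 0.54 (SE, adjusted p = 0.0022); 2.43 ± 0.44 (SE, adjusted p = 7.5e-05) without the first TCF12-labelled library) and differed among themselves (adjusted p = 0.024; 0.09 and 0.094 without TCF4 library 2 or 3).

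Summed levels of the neuron markers and of the blood and endothelium markers also differed between the groups. Of 5 neuron markers, Tubb3 was higher than in the parental group in all 5 induced groups, and Map2 in the TCF4 dimer. Dcx was lower in the TCF3-labelled and TCF12-labelled libraries and the induced and uninduced monomer, Elavl3 in the TCF3-labelled and TCF12-labelled libraries, and Stmn2 in the TCF3-labelled libraries and both monomer groups, while Map2 was lower in the uninduced line. The 5, none at 0 in any group, summed to 137 to 139 CPM in the parental samples, 113 to 120 without and 125 to 128 with induction of the monomer, 184 to 197 in the homodimer, 170 to 186 in the TCF3-labelled libraries, 189 to 199 in the TCF4 dimer and 186 to 256 in the TCF12-labelled libraries. Tubb3 alone was at 101 CPM in the TCF4 dimer, where the mean sum was 193 CPM. The 9 blood and endothelium markers, none at 0 in any group, summed to 27.6 to 34.1 CPM in the parental and uninduced samples, 103 to 106 in the monomer, 132 to 140 in the homodimer and 82.3 to 211 in the heterodimer groups. Of these 9, 7 were higher than in the parental group in the TCF3-labelled libraries, 2 in the TCF4 dimer, 5 in the TCF12-labelled libraries (Pecam1 was lower there), 3 in the monomer, 2 in the homodimer and 2 in the uninduced line. The part of these cell types in the level of Neurod1, Neurod4 or Atoh8 was not tested.

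Of 20 neuronal differentiation genes, 16 were tested. Relative to the parental group 7 were higher and 3 lower for the monomer, 5 and 1 for the homodimer, 10 and 4 in the TCF3-labelled libraries, 5 and 1 in the TCF4 dimer, 9 and 4 in the TCF12-labelled libraries and 3 and 4 in the uninduced line. Ebf2, a factor of early neurons and mesenchyme, was at 4.36 against 0.0725 CPM in the TCF3-labelled libraries. Insm1, a zinc finger factor of neurons and endocrine cells, was at 8.19 against 0.700 CPM in the monomer and 10.4 against 0.700 CPM in the TCF3-labelled libraries. Tubb3, a neuronal tubulin, was at 101 against 39.0 CPM in the TCF4 dimer, and the Notch ligand Dll1 at 15.1 against 3.74 CPM in the homodimer. The median log2 difference of the tested list was 0.29, 0.33, 1.27, 0.80 and 1.08 in the 5 induced groups and 0.30 in the uninduced line.

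The other neurogenic members were not expressed. The highest group mean was 0.106 CPM for Neurog1, 0.0897 for Neurog2, 0.156 for Atoh1, 0.0673 for Nhlh1, and 0.256, 0.166 and 0.136 for Olig1, Olig2 and Olig3. Nhlh2 and Neurog3 were described after their values were seen. Nhlh2, a neuronal factor, had 13 and 18 counts in the TCF3-labelled and TCF12-labelled groups and 5 in the other 5 groups together, and with no filter on low counts it passed against the parental group in the TCF12-labelled libraries (adjusted p = 0.013) and not in the TCF3-labelled libraries (adjusted p = 0.065). It also passed there against the uninduced line (adjusted p = 0.013). Neurog3, the factor of pancreatic endocrine precursors, had 1, 9 and 7 counts in the uninduced libraries and at most 4 in any other, and with no filter it passed as higher in that line than in the parental group (adjusted p = 0.026), the homodimer (0.018) and the TCF4 dimer (0.001).

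**Figure D4:**
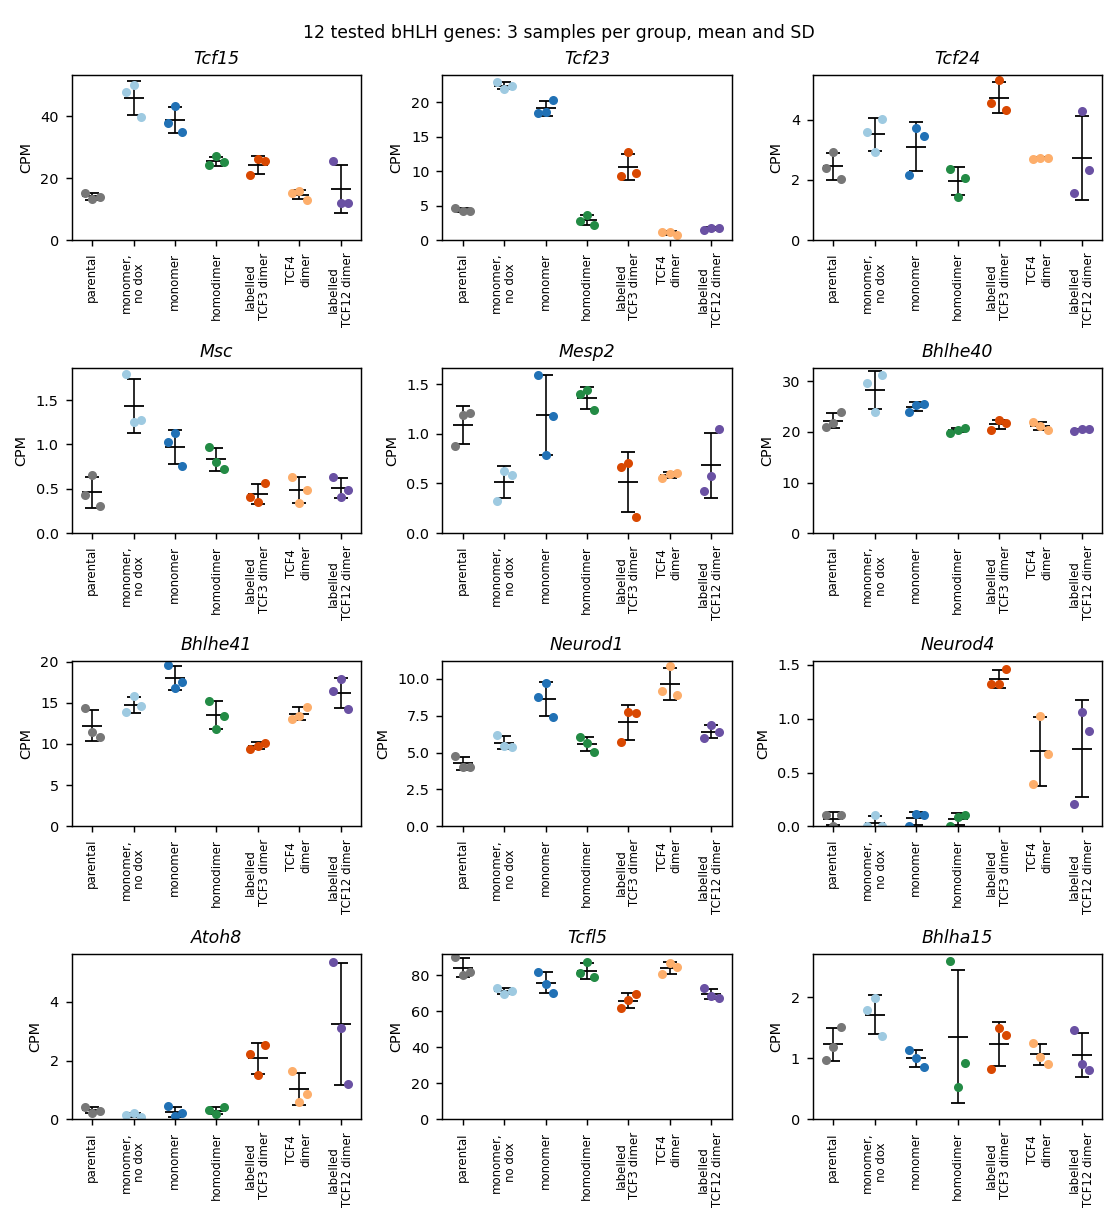
Level in CPM of the 12 tested genes in the 7 groups, 1 panel per gene with its own axis from 0, points for the 3 samples and bars for the mean and SD. Neurod4 and Atoh8 stay at or under 0.455 CPM outside the 3 heterodimer groups, Tcf23 and Tcf15 are highest in the uninduced and induced monomer, and the TCF12-labelled libraries are spread widely for Atoh8 and Tcf15.

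The 2 repressors Bhlhe40 and Bhlhe41 (also called DEC1 and DEC2) act in the circadian clock and in the response to low oxygen. Bhlhe40 was at 21, 21.8 and 23.8 CPM in the parental samples, 29.6, 23.9 and 31.2 in the monomer line without doxycycline and 23.9, 25.3 and 25.6 with it, and 19.9, 20.4 and 20.7 in the homodimer samples. It was 20.4, 22.2 and 21.7 CPM in the TCF3-labelled libraries, 21.9, 21.2 and 20.4 in the TCF4 dimer and 20.1, 20.5 and 20.6 in the TCF12-labelled libraries. The uninduced line was the high group, above the parental group (0.34 ± 0.09 (SE, adjusted p = 0.0097)) and above the homodimer and the 3 heterodimer groups, whose log2 differences from it were -0.39 to -0.47 (adjusted p = 0.00064 for the homodimer and 0.0022, 0.0012 and 0.0004 for the TCF3-labelled, TCF4 and TCF12-labelled groups). The last became 0.00019 without the first TCF12-labelled library and 0.073 with only the groups compared. The call against the parental group was lost without parental library 1 or uninduced library 3 (adjusted p = 0.051 and 0.083), with library size alone as scaling (0.066) and with no filter on low counts (0.093), and no induced group passed against the parental group.

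Bhlhe41 was at 14.4, 11.5 and 10.8 CPM in the parental samples, 13.8, 15.8 and 14.6 in the monomer line without doxycycline and 19.6, 16.8 and 17.5 with it, and 15.2, 11.8 and 13.4 in the homodimer samples. It was 9.34, 9.80 and 10.2 CPM in the TCF3-labelled libraries, 13.1, 13.4 and 14.5 in the TCF4 dimer and 16.5, 17.9 and 14.2 in the TCF12-labelled libraries. The TCF3-labelled samples lay below all others. Against the parental group Bhlhe41 was higher in the monomer (0.56 ± 0.12 (SE, adjusted p = 0.0027)) and in the TCF12-labelled libraries (0.41 ± 0.12 (SE, adjusted p = 0.02); 0.39 ± 0.13 (SE, adjusted p = 0.017) without the first library), although 1 parental sample overlapped the latter. That second call was lost without parental library 2 or 3 or TCF12-labelled library 2 (adjusted p = 0.083, 0.11 and 0.081), with library size alone as scaling (0.066) and with only the groups compared (0.25). In the TCF3-labelled libraries it was lower than in the uninduced line (-0.60 ± 0.13 (SE, adjusted p = 0.0013)), and against the parental group it missed the threshold (-0.32 ± 0.13 (SE, adjusted p = 0.065)) and passed in the fit without the first TCF12-labelled library (adjusted p = 0.03). The 3 heterodimers differed (adjusted p = 0.00083). Of the exon length of Bhlhe41, 19% overlaps Gm43909 on the opposite strand, and 2.51% of that of Bhlhe40 overlaps 0610040F04Rik.

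All 20 clock and hypoxia genes listed beside these repressors were tested. Relative to the parental group 5 were higher and 2 lower for the monomer, 0 and 2 for the homodimer, 3 and 2 in the TCF3-labelled libraries, 0 and 3 in the TCF4 dimer, 2 and 7 in the TCF12-labelled libraries and 4 and 1 in the uninduced line. Vegfa, a growth factor induced by hypoxia, was at 19.1 against 6.89 CPM in the monomer and 20.3 against 6.89 CPM in the uninduced line, and at 3.76 against 6.89 CPM in the TCF12-labelled libraries. Ndrg1, another gene of that response, was at 3.78 against 9.27 CPM in the homodimer.

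Tcfl5, known from the testis, had the highest parental level per kilobase of the 12, and its highest and lowest group means differed by 1.28-fold. Its level was 90.4, 80.3 and 81.8 CPM in the parental samples, 73.0, 69.7 and 71.2 in the monomer line without doxycycline and 81.9, 75.2 and 70.4 with it, and 81.0, 87.5 and 79.0 in the homodimer samples. It was 61.8, 66.3 and 69.7 CPM in the TCF3-labelled libraries, 80.5, 86.8 and 84.4 in the TCF4 dimer and 73.0, 68.7 and 67.6 in the TCF12-labelled libraries. The uninduced, TCF3-labelled and TCF12-labelled samples all lay below the parental samples. Tcfl5 fell by 0.35 on the log2 scale against the parental group in the TCF3-labelled libraries (SE 0.07, adjusted p = 0.0012), by 0.27 in the TCF12-labelled libraries (SE 0.07, adjusted p = 0.011; 0.00083 without the first library) and by 0.24 in the uninduced line (SE 0.07, adjusted p = 0.028). Without parental library 1 the last 2 were lost (adjusted p = 0.067 and 0.15), and the uninduced call also without any 1 of the uninduced libraries (adjusted p = 0.052 to 0.091). With no filter on low counts both were lost (adjusted p = 0.089 and 0.16), and the TCF12-labelled call also with only the groups compared (0.22). Tcfl5 was higher in the TCF4 dimer than in the uninduced line (0.23 ± 0.07 (SE, adjusted p = 0.02)), a call lost without uninduced library 2 or TCF4 library 2 or 3 (adjusted p = 0.067, 0.072 and 0.053) and with no filter on low counts (0.084). Its calls in the homodimer against the uninduced line (0.21 ± 0.07 (SE, adjusted p = 0.047)) and in the heterodimers against the homodimer (-0.18 ± 0.06 (SE, adjusted p = 0.049)) were lost in 9 and 15 of the 21 fits that left out 1 library, with no filter on low counts (adjusted p = 0.21 and 0.3) and with a replicate block (0.057 and 0.06), the second also with only the groups compared (0.12). Without the first TCF12-labelled library the second was -0.20 ± 0.05 (SE, adjusted p = 0.003). It differed among the heterodimers (adjusted p = 0.0041), the TCF4 dimer being the high group. Of its exon length, 7.39% overlaps Col9a3 on the opposite strand.

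Bhlha15 (MIST1, a factor of secretory cells) was expressed in all groups, with group means from 1.00 CPM in the induced monomer to 1.71 CPM in the uninduced line. It passed in no comparison, and its smallest adjusted p was 0.18. One homodimer sample was at 2.59 CPM and the others at 0.539 and 0.926, a spread wider than that of the group means.

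The remaining members had few counts: 102 for Bhlhe23, 71 for Lyl1 (a factor of blood cells), 36 for Figla (a factor of oocytes), 2 for Ferd3l and 1 for Ptf1a (a factor of the pancreas and cerebellum) over all 21 libraries. With no filter on low counts Bhlhe23, described after its values were seen, passed as lower than in the uninduced line in the TCF3-labelled (-2.03 ± 0.58 (SE, adjusted p = 0.01)) and TCF12-labelled libraries (-1.80 ± 0.57 (SE, adjusted p = 0.016)). The highest group means of these 5 genes were 0.965, 0.5, 0.332, 0.0299 and 0.0299 CPM. Of the 35 genes, 18 had under 50 counts in all libraries together, and for these a difference between groups was not detectable at this depth unless it was large, as for Mesp1.

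Among the E-protein partners and Id inhibitors of tissue-restricted bHLH factors, the 4 Id genes were higher than in the parental group in all 4 dimer groups. The partner genes Tcf3, Tcf4 and Tcf12 passed as higher in the dimer groups only where already given, Tcf4 in the TCF4 dimer and Tcf12 in the TCF3-labelled libraries. Of 7 such genes (Tcf3, Tcf4, Tcf12 and Id1 to Id4), all tested and with the construct's own Tcf4 counted in the TCF4 dimer, 2 were higher than in the parental group for the monomer, 4 for the homodimer, 5 in the TCF3-labelled libraries, 5 in the TCF4 dimer and 4 in the TCF12-labelled libraries (6 without the first library, with Tcf4 and Tcf12), none was lower in these 5 groups, and 0 were higher and 2 lower in the uninduced line. Id1 was at 99.8 against 31.5 CPM in the homodimer, 242 against 31.5 CPM in the TCF4 dimer and 599 against 31.5 CPM in the TCF12-labelled libraries. Id4 was at 29.5 against 3.07 CPM in the TCF3-labelled libraries. The 3 groups in which Neurod4 and Atoh8 were detected above the others had the highest Id1 levels, those of the TCF3-labelled libraries being 326 against 31.5 CPM.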

How the data were processed

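The authors deposited a table of raw read counts for each sample, with 1 row per gene symbol. The submitters' processing notes name FastQC, TopHat2 and HTSeq and the builds mm10 and GRCm38, while the annotation and the strand setting are not given in the sources used here. Tables were joined by row position, because 25 symbols had been turned into dates in 18 of the 21. Totals were 6648842 to 15999693 counts, and 3 counts were taken as the floor; floors and intervals (95%) cover counting error only.

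Groups come from the labels' genotype and treatment. All 21 samples entered 1 fit of edgeR 4.0.16 (limma 3.58.1, R 4.3.3) with group means, TMM factors and filterByExpr (count 10, total 15), tested by quasi-likelihood F-tests in 13 comparisons with Benjamini-Hochberg adjustment over 14311 genes. Standard errors were derived from the F statistic. The procedure was checked on simulated counts. Alternatives were other filters, RLE factors or no scaling factors, DESeq2 1.42.0, only the groups compared, a replicate block and leaving out each sample. Expressed members that passed somewhere are given in every sample, others by group means or totals. Members and lists (pathway and marker genes) were chosen with earlier results of these data known. Gene positions are from GENCODE mouse release M21 and promoters from RefSeq GRCm38.p6. Protein sequences were not used here.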

Additional observations from a re-analysis of the deposited data

How the results depend on the processing

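The 12 tested genes gave 69 calls over the 13 comparisons, of which 43 held in every alternative. Over the alternatives other than leaving out a library, 444 of 477 values kept direction and side of the threshold, 33 lost the threshold and 0 reversed. Over the fits without 1 library these numbers were 1315 of 1449, 134 and 0. The number of genes passing moved by more than 1.5 times in these cases: with only the groups compared in the fit it was 2 for the homodimer against the parental group (1 in the fit of all samples), 2 for the TCF12-labelled dimer against the parental group (6), 3 for the heterodimers against the homodimer (7) and 2 among the heterodimers (7). With no filter on low counts it was 2 for the homodimer against the parental group and 0 for the induced against the uninduced monomer (1). The cause was not tested. Leaving out 1 library gave 4 to 5 genes for the monomer, 0 to 2 for the homodimer, 7 to 9 for the TCF3-labelled dimer, 2 to 4 for the TCF4 dimer, 5 to 7 for the TCF12-labelled dimer and 3 to 6 for the uninduced line, each against the parental group. Against the uninduced line it gave 0 to 1 for the monomer, 3 to 6 for the homodimer, 7 to 8, 7 to 8 and 6 to 7 for the heterodimers in the order TCF3-labelled, TCF4 and TCF12-labelled. It gave 2 to 7 for heterodimers against homodimer, lowest without homodimer library 2, and 4 to 7 among heterodimers. All these counts are of listed bHLH genes only, and the shares of all genes that passed in these alternative fits are not given here. The 12 expressed genes were 12 in every such fit, 18 at a threshold of 0.5 CPM and 8 at 2 CPM. No scaling moved the median of all genes by more than 0.087 (log2). The depth limits the genes near 3 counts a library.

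The replicate numbers are shared by all groups, and the values here do not settle whether they pair the samples. The deviations of same-numbered samples correlated with a mean of 0.0214 over 63 pairs, 8 of them over 0.1, against -0.0102 over 126 other pairs. Of 21 samples, 12 correlated best with their own number. When the replicate number entered the fit as a block, the counts were 7 for the TCF3-labelled dimer against the parental group (8 without the block), 4 for the homodimer against the uninduced line (6) and 5 for the heterodimers against the homodimer (7), and the other 10 were unmoved. The shares of all genes that passed with the block are not given here.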

Other observations

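Of 12 further bHLH genes of the Ascl, Tal, Neurod, Atoh and Bhlh families that are not among the 35, chosen after the results above were known, 3 were tested. Bhlhe22, a factor of cortical and retinal neurons, was near the floor in the parental samples (0.872, 0.434 and 1.01 CPM), the uninduced (0.163, 0.418 and 0.0977 CPM) and the induced monomer (0, 0.338 and 0.430 CPM), and at 1.62, 1.26 and 1.13 CPM in the homodimer. In the TCF3-labelled libraries it was at 21.9, 12.1 and 15.0 CPM, with 5.66, 7.44 and 4.50 in the TCF4 dimer and 20.7, 15.6 and 12.8 in the TCF12-labelled libraries. All heterodimer samples lay above all others, and the log2 difference from the parental group was 4.37 ± 0.36 (SE, adjusted p = 2.7e-08), 2.88 ± 0.40 (SE, adjusted p = 3.9e-05) and 4.37 ± 0.36 (SE, adjusted p = 4.3e-08) in that order. It was also higher in the homodimer than in the uninduced line (2.46 ± 0.70 (SE, adjusted p = 0.014)). Bhlhe22 was below 1 CPM on average in the parental and both monomer groups and was tested because the dimer groups had enough counts. A difference from those groups was therefore built into its selection. Tal1, a factor of blood and endothelium, was higher in the heterodimers than in the homodimer (0.84 ± 0.16 (SE, adjusted p = 0.0013)), and Ascl2, a factor of trophoblast and intestine, was lower (-0.85 ± 0.19 (SE, adjusted p = 0.0043)).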
